A study of Mus musculus with 10 samples.

Results

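The core of the PI3K, AKT and mTOR pathway was examined in mouse medulloblastoma through 8 genes, Pik3ca, Pik3r1, Pik3r3, Akt1, Akt2, Tsc1, Tsc2 and Mtor. Their probe sets were all those annotated to 1 of these symbols and to no other gene, which gave 25 of the 45137 probe sets of the series, 14 on the Affymetrix chip 430A and 11 on the chip 430B. The 8 genes were among 18193 that had a probe set of their own. By RefSeq, Pik3ca lies on chromosome 3, Pik3r1 on 13, Pik3r3 and Mtor on 4, Akt1 on 12, Akt2 on 7, Tsc1 on 2 and Tsc2 on 17. The medulloblastomas, malignant tumours of the cerebellum, and the neighbouring cerebellum, named wild type in the labels, both came from mice that carried CAGGS-CreER and R26-SmoM2. CreER is a recombinase that tamoxifen switches on, here driven by the broadly active CAGGS promoter, and SmoM2 is a constantly active form of Smoothened, the activator of the Hedgehog pathway. Tamoxifen was given to all mice on postnatal day 10 (1 mg for each 40 g of weight), so the cerebellum samples shared the alleles and the injection with the tumours. RNA of 3 medulloblastomas and 2 cerebellum samples was measured on each chip, 10 arrays in all. The labels give neither the age at dissection nor whether tissue of several animals was pooled.

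PI3K is a lipid kinase at the inner face of the plasma membrane, made of a catalytic p110 subunit and a regulatory subunit that ties it to activated receptors. Its lipid product recruits AKT, a kinase that promotes growth and survival and that inhibits the complex of TSC1 and TSC2. That complex holds the small GTPase RHEB inactive, and RHEB in its active form switches on the kinase mTOR, which promotes protein synthesis and cell growth. In the developing cerebellum, insulin-like growth factor signals through this pathway and acts together with Hedgehog signalling on the precursors of granule neurons, the cells from which Hedgehog medulloblastoma arises.

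The median intensity lay between 33.3 and 34.5 on the tumour arrays of 430A and between 35.6 and 35.9 on its cerebellum arrays, and between 22.5 and 22.8 on the tumour arrays of 430B, against 23.4 and 24.0 on its cerebellum arrays. The tissue labels were checked with marker lists. Of 8 markers of granule neuron precursors 6 rose in medulloblastoma and 2 fell. Atoh1, which specifies the granule lineage, rose, with a mean intensity of 506 in tumours and 21.96 in cerebellum. The 2 that fell were Neurod1 (mean 691 in tumours and 2037 in cerebellum) and Zic1 (1052 and 2390). The summed intensity of the 8 on 430A overlapped, at 4122 to 5390 in tumours and 4326 to 4879 in cerebellum. All 5 measured markers of mature granule neurons, 5 of Purkinje cells and 4 of oligodendrocytes fell, as did 4 of 5 markers of GABAergic interneurons and 4 of 6 of Bergmann glia and astrocytes. Of 5 microglia markers 2 rose and none fell, and 1 of 4 endothelial markers fell. The summed intensity on 430A was 268 to 380 in tumours and 8037 to 9039 in cerebellum for mature granule neuron markers, and 216 to 457 in tumours and 12898 to 16246 in cerebellum for Purkinje cell markers. The part of these cell types in the differences given here was not tested. RNA came from pieces of tissue, so fewer cells of a type and less RNA per cell cannot be told apart. The numbers of the tumours could not be carried from one chip to the other. Over 100 probe sets that both chips hold, the deviations of tumours 1, 2 and 3 on 430A from their group mean correlated with those of the same numbers on 430B at r = 0.22, -0.68 and -0.52. The best matches were medulloblastomas 2, 3 and 1 of 430B, at 0.83, 0.86 and 0.73. Each chip was therefore fitted alone.

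Across the core, Akt1 and Tsc2 were higher in medulloblastoma and Pik3r1 was lower, while no probe set of Pik3ca, Pik3r3 or Akt2 passed the test. Tsc1 and Mtor each had probe sets that passed in opposite directions. On 430A, 10 of 14 tested probe sets passed limma's test at an adjusted p below 0.05, 5 of them higher and 5 lower, against 32.2% of the 16969 tested probe sets of that chip (13.1% higher and 19% lower). On 430B, 1 of 8 passed, as lower, against 17.6% of 16883 (7.85% higher and 9.77% lower). Those 430B calls were 1326 higher and 1649 lower, and 480 higher and 2079 lower with the chip scaled on the probe sets it shares with 430A. The groups did not overlap in 12 of the 14 probe sets on 430A, where this held for 55.6% of all tested, and in 3 of the 8 on 430B, where it held for 45.6%. On 430A 6 of the 12 lay higher in tumours and 6 lower, against 23.8% and 31.8% of all tested, and on 430B 1 lay higher and 2 lower, against 20.8% and 24.7%. Several of these probe sets read the same gene, so the counts are not counts of independent genes. The other 3 probe sets, 1 each of Akt1, Tsc1 and Mtor on 430B, lay among the dimmest 25% of their chip and were not tested. Fold changes, also those given as a ratio, are on the scale of log2(intensity + 16), which understates changes, most of all in dim probe sets. The titles call the samples of a group biological replicates, without saying how many mice each came from. The p-values rest on the scatter of these 3 and 2 samples, which limma drew towards that of other probe sets of like intensity.

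**Figure D1:**
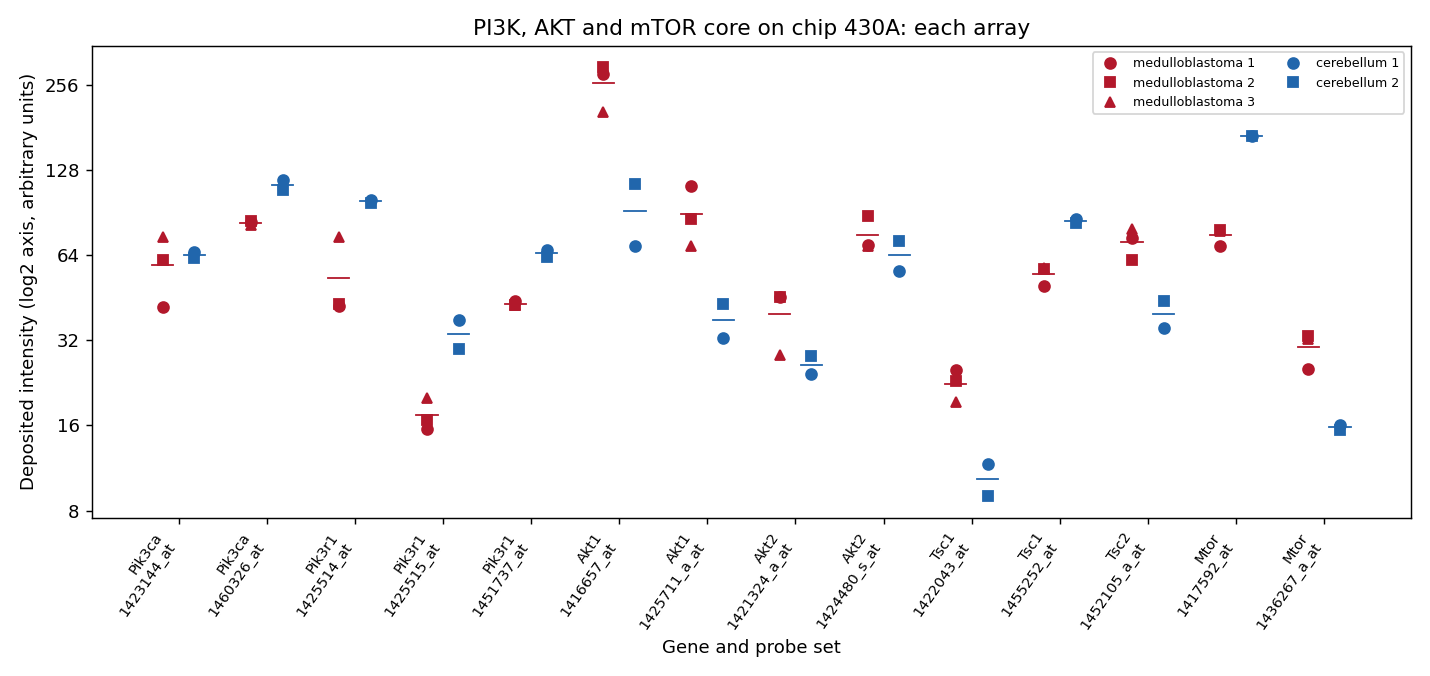
Deposited intensity of the 14 core probe sets on 430A, on a log2 axis, with medulloblastomas in red on the left and cerebellum samples in blue on the right of each position, 1 symbol per replicate number and a line at each group mean. The tumours lie above the cerebellum in both Akt1 probe sets and in Tsc2, below it in the 3 Pik3r1 probe sets, and on opposite sides of it in the 2 probe sets of Tsc1 and of Mtor.

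Among the genes of the kinase itself, Pik3ca encodes p110 alpha, the catalytic subunit. It had the most probe sets, 6, and none passed. The brightest of 430A, 1460326_at, had an intensity of 83.6, 84.5 and 81.7 in the medulloblastomas against 118 and 109 in the cerebellum samples. The tumours lay closely together and below both cerebellum samples. Its log2 fold change was -0.38 ± 0.17 (SE, adjusted p = 0.126 in limma), with a 95% interval of -0.77 to 0.0032. The second probe set of 430A, 1423144_at, had 42.1, 61.7 and 74.3 in tumours and 65.9 and 62.5 in cerebellum, so the groups overlapped. It gave -0.11 ± 0.20 (adjusted p = 0.731), and 0.063 without medulloblastoma 1. On 430B the 4 probe sets gave log2 fold changes between -0.25 and 0.18, all with overlapping groups and with adjusted p from 0.423 to 0.701. Their 95% intervals spanned from -0.64 to 0.57.

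Pik3r1 encodes p85 alpha and its shorter forms, the regulatory subunits that stabilise p110 and dock it on receptors. All 4 of its probe sets were lower in medulloblastoma. In 1425514_at the intensity was 42.3, 42.9 and 74.1 in tumours, against 101 and 98.3 in cerebellum. Medulloblastoma 3 stood above the other tumours yet below both cerebellum samples. The log2 fold change was -0.77 ± 0.21 (adjusted p = 0.0171), a ratio of 0.59 with 16 added to the values. The probe set 1425515_at had 15.5, 16.7 and 20.1 in tumours against 37.7 and 29.8 in cerebellum, a change of -0.57 ± 0.15 (adjusted p = 0.0118). In 1451737_at the 3 tumours were nearly equal, at 44.2, 42.6 and 42.6, against 66.7 and 63.3 in cerebellum, a change of -0.45 ± 0.15 (adjusted p = 0.0410). The 430B probe set 1438682_at had 42.7, 42.4 and 57.0 in tumours and 83.1 and 73.1 in cerebellum. The tumour nearest to the cerebellum was the one numbered 3 on that chip, and the change was -0.58 ± 0.17 (adjusted p = 0.0442). Tumour and cerebellum values did not overlap in any of the 4. The mean of the 3 probe sets of 430A per array gave -0.60 ± 0.14 (adjusted p = 0.00877 over 9818 genes).

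The direction for Pik3r1 held in every fit, and the calls did not. For 1425514_at the call ended without medulloblastoma 1 (log2 fold change -0.66), cerebellum 1 (-0.76) or cerebellum 2 (-0.79), and for 1425515_at without cerebellum 1 (-0.46). For 1451737_at it ended without medulloblastoma 1 (-0.47), medulloblastoma 3 (-0.45), cerebellum 1 (-0.42) or cerebellum 2 (-0.48), after quantile normalization (-0.39), with equal array medians (-0.40) and with no filter on dim probe sets. For 1438682_at it ended without medulloblastoma 1 (-0.53), medulloblastoma 2 (-0.52), cerebellum 1 (-0.50) or cerebellum 2 (-0.65), after quantile normalization (-0.52), with equal array medians (-0.54), with a pseudocount of 1 (-0.72) and with no filter.

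Pik3r3 encodes p55 gamma, a regulatory subunit related to the p85 proteins. Its only probe set, 1456482_at on 430B, was at the 99.0 percentile of intensity on its chip. It had an intensity of 319, 268 and 155 in tumours, against 446 and 408 in cerebellum. All 3 tumours lay below the cerebellum, medulloblastoma 3 farthest. The log2 fold change of -0.81 ± 0.31 had an adjusted p of 0.118 in limma, and its 95% interval ran from -1.51 to -0.10. Without medulloblastoma 3 it was -0.52 with an adjusted p of 0.04996 in limma, a smaller change that passed the threshold. Over all probe sets of 430B, medulloblastoma 3 correlated with medulloblastomas 1 and 2 at r = 0.93 and 0.94, against 0.97 between those 2. Without it, 2601 probe sets of 430B were called higher and 2262 lower, against 1326 and 1649 with all arrays. Pik3r3 was thus read on a chip with 1 tumour array less like the others. Its adjusted p in limma was 0.0243 after quantile normalization (-0.75) and 1.12e-05 with 430B scaled on the probe sets it shares with 430A (-1.19). That scaling follows replicate numbers, which did not match between the chips. It moved the median log2 fold change of all 430B probe sets from -0.02 to -0.41, and the value of -1.19 holds that shift.

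AKT1 and AKT2 are closely related kinases downstream of PI3K, AKT1 tied mostly to growth and survival and AKT2 to insulin-stimulated glucose uptake. Akt1 had the largest rise of the core. Its probe set 1416657_at had an intensity of 281, 296 and 205 in the medulloblastomas and 68.9 and 115 in the cerebellum samples, a mean of 261 ± 48.8 (SD, n = 3) against 91.9 ± 32.5 (SD, n = 2). The lowest tumour was above the higher cerebellum sample. The log2 fold change was 1.38 ± 0.25 (adjusted p = 0.00129), or 2.60-fold with 16 added to the values. The probe set was called in all 14 alternative fits. The log2 fold change was 1.06 without cerebellum 1 and 1.69 without cerebellum 2. A second probe set, 1425711_a_at, had 113, 86.3 and 68.8 in tumours and 32.7 and 43.1 in cerebellum, again without overlap. It rose by 0.95 ± 0.21 (adjusted p = 0.00422), and its call ended without cerebellum 1 (0.81). On 430B, 1440950_at had 89.5, 73.0 and 81.5 in tumours against 66.4 and 65.0 in cerebellum. It lay higher in each tumour but did not pass, at 0.25 ± 0.17 (adjusted p = 0.386). Scaled on the shared probe sets it gave -0.14, a value that holds the shift of that scaling. The untested 1442759_at had 2.42, 8.64 and 8.31 in tumours and 16.1 and 14.9 in cerebellum, the opposite order at a dim level.

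Akt2 did not pass in any of its 3 probe sets. In 1421324_a_at the intensity was 45.5, 45.4 and 28.3 in tumours, against 24.3 and 28.2 in cerebellum. Medulloblastomas 1 and 2 stood apart, and medulloblastoma 3 was level with cerebellum 2. The log2 fold change was 0.39 ± 0.18 (adjusted p = 0.130, 95% interval -0.0074 to 0.78), and without medulloblastoma 3 it was 0.54 with an adjusted p of 0.0314. The probe set 1424480_s_at had 69.8, 88.4 and 68.8 in tumours and 56.2 and 72.1 in cerebellum, with 0.19 ± 0.18 (adjusted p = 0.483). On 430B, 1455703_at had 47.5, 40.7 and 34.1 in tumours and 46.9 and 42.2 in cerebellum, with -0.10 ± 0.16 (adjusted p = 0.741). Groups overlapped in both. Whether Akt1 and Akt2 differed in their change was not tested.

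TSC1 and TSC2 form the complex that restrains mTOR, TSC2 as the part that acts on RHEB and TSC1 as the part that stabilises TSC2. The single Tsc2 probe set, 1452105_a_at, had 73.7, 61.8 and 79.1 in medulloblastomas and 35.4 and 44.2 in cerebellum. Each tumour was above both cerebellum samples, and Tsc2 rose by 0.65 ± 0.17 (adjusted p = 0.0134), or 1.57-fold. The call ended without cerebellum 1 (0.54) or cerebellum 2 (0.76). Tsc1 gave no single direction. Its probe set 1455252_at had 49.99, 57.1 and 57.9 in tumours and 86.2 and 82.9 in cerebellum, a change of -0.50 ± 0.16 (adjusted p = 0.0364). In the dimmer 1422043_at the order was turned round, with 25.1, 23.0 and 19.4 in tumours and 11.7 and 8.98 in cerebellum, a change of 0.55 ± 0.14 (adjusted p = 0.0118). Neither probe set had overlapping groups. The call for 1455252_at ended without medulloblastoma 1 (-0.45), medulloblastoma 3 (-0.53), cerebellum 1 (-0.48) or cerebellum 2 (-0.53), after quantile normalization (-0.42), with equal array medians (-0.45) and with no filter. That for 1422043_at ended without cerebellum 2 (0.47), and without medulloblastoma 1 or 2 it fell below the filter. The mean of both per array gave 0.02 ± 0.13 (adjusted p = 0.921). On 430B, 1439989_at had 12.5, 13.6 and 6.05 in tumours and 12.3 and 8.63 in cerebellum and was not tested.

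Mtor, the kinase at the end of this chain, likewise had probe sets that passed in opposite directions. In 1417592_at the intensity was 68.8, 78.8 and 78.1 in the medulloblastomas against 169 and 169 in the cerebellum samples, with little spread in either group. The log2 fold change was -1.02 ± 0.18 (adjusted p = 0.00113), a ratio of 0.49 with 16 added to the values. The probe set was called in all 14 alternative fits, between -1.16 and -0.74. In 1436267_a_at the tumours had 25.3, 33.3 and 32.2 and the cerebellum samples 16.1 and 15.4, again without overlap. This probe set was higher by 0.54 ± 0.15 (adjusted p = 0.0150), and its call ended without cerebellum 1 (0.56) or cerebellum 2 (0.52). The mean of both per array gave -0.24 ± 0.14 (adjusted p = 0.233). The untested 430B probe set 1446185_at had 5.89, 8.92 and 8.49 in tumours and 13.7 and 10.1 in cerebellum. Which stretch of the transcripts each probe set reads is not given in the sources used here, and the difference between the probe sets of Tsc1 and of Mtor was not tested.

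**Figure D2:**
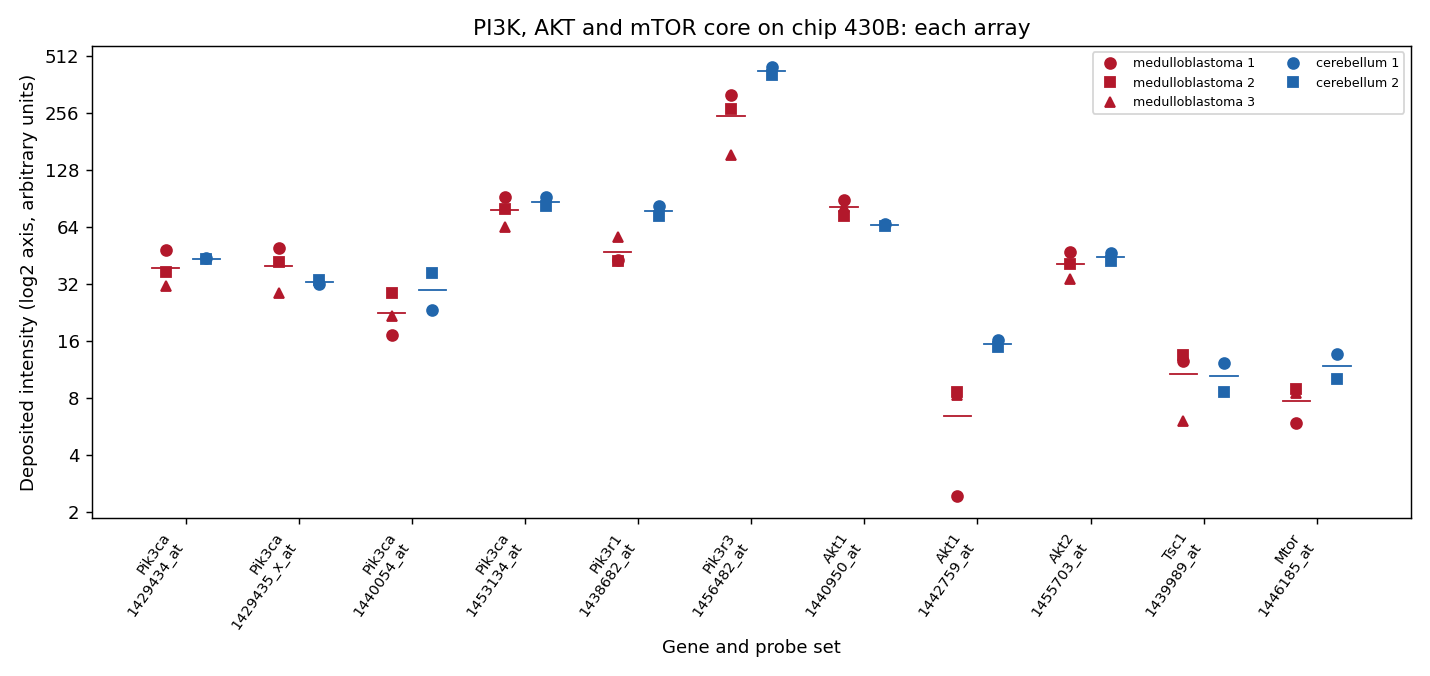
Deposited intensity of the 11 core probe sets on 430B, on a log2 axis, drawn as for 430A. Pik3r3 and the Pik3r1 probe set have all 3 tumours below both cerebellum samples, and the 4 Pik3ca probe sets have overlapping groups.

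**Figure D3:**
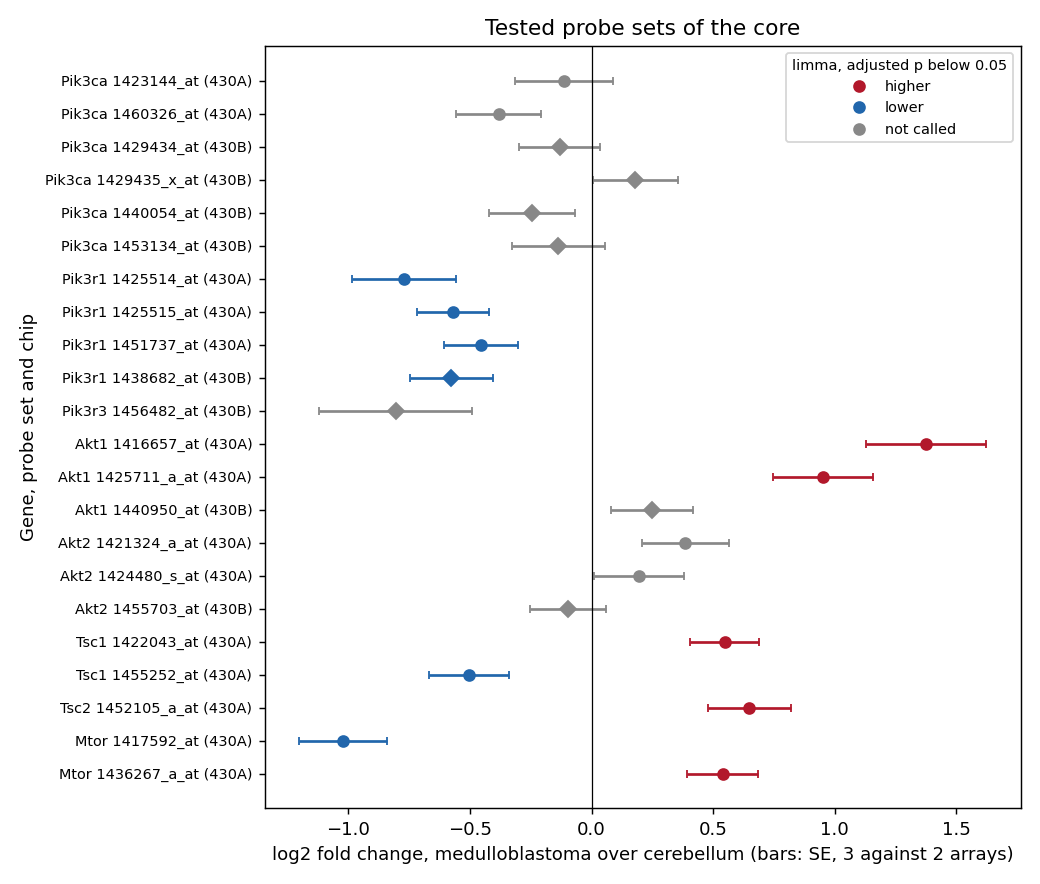
Log2 fold change of medulloblastoma over cerebellum for the 22 tested core probe sets, with SE bars from limma (3 against 2 arrays), circles for 430A and diamonds for 430B, coloured by call. Akt1 1416657_at lies at 1.38 and Mtor 1417592_at at -1.02, and 11 probe sets are grey, meaning not past an adjusted p of 0.05.

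**Figure D4:**
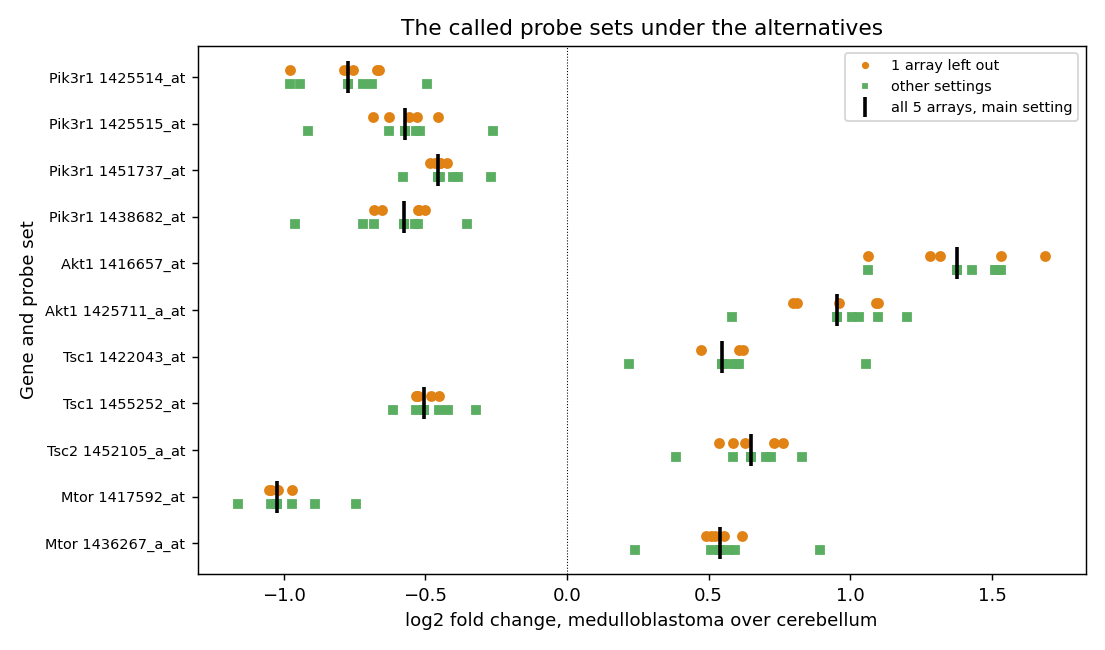
Log2 fold change of the 11 called probe sets with all 5 arrays of a chip (black line), with 1 array left out (orange circles) and under the other settings (green squares). In each of these fits a probe set kept the direction it had with all arrays, and the widest spread among the fits with 1 array left out belongs to Akt1 1416657_at, from 1.06 to 1.69.

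Promoter sequence of the core was read from RefSeq windows on GRCm38.p6, which run from 250 bases before to 50 after a listed transcription start. The 8 genes had 15 such windows. They were searched on both strands for 5 short motifs: the GLI core ACCACCC, bound by the transcription factors of the Hedgehog pathway, the E-box CACGTG of the MYC family, the E2F core GGCGGGA, the forkhead motif TGTTTAC, which FOXO factors downstream of AKT can bind, and the GC box GGGCGG. The last and the E2F core can overlap. The GLI core was found in 4.61% of all 32851 windows, the E-box in 7.15%, the E2F core in 11.34%, the forkhead motif in 3.65% and the GC box in 35.66%. Among the windows of the core, 2 overlapping windows of Pik3r3 held the same stretch with the GLI core, 1 of Akt1 held the forkhead motif, none held the E-box or the E2F core, and 8 held a GC box. The windows at the most upstream start are given for Akt1, which rose, for Pik3r1, which fell in every probe set, and for Pik3r3, the holder of the GLI core. Each is written 5′ to 3′ on the strand of the gene, with matches in capitals. Akt1 lies at chr12:112674835-112675134 on the minus strand, Pik3r1 at chr13:101768168-101768467 on the minus strand and Pik3r3 at chr4:116221166-116221465 on the plus strand.
Akt1: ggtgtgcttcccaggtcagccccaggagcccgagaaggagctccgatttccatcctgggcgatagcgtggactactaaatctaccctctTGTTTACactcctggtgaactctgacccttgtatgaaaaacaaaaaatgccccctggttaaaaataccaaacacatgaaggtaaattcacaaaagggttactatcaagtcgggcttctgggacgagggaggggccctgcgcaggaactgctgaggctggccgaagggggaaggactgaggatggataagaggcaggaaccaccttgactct
Pik3r1: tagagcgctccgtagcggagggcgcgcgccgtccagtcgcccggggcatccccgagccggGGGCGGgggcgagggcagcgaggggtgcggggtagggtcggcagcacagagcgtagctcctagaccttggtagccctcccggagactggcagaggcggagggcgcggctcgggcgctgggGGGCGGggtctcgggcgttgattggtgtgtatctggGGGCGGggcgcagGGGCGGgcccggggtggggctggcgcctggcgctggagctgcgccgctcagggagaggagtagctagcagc
Pik3r3: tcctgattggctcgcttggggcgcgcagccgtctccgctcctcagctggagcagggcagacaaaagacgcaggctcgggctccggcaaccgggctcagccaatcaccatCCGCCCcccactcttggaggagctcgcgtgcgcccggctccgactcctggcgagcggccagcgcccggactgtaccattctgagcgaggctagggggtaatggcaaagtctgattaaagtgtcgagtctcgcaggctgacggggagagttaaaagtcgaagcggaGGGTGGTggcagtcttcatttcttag
The Akt1 window held 1 match, to the forkhead motif, while the second Akt1 window, not shown, held GC boxes. The Pik3r1 window held 4 GC boxes. In Pik3r3 the reverse complement of the GC box stood first and that of the GLI core followed nearer to the end. These matches are descriptions of the letters and show no binding.

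Genes around the core were taken from 10 lists by role, 106 genes with the 8 members. Of the 98 others, 86 were tested with 1 probe set each, 6 rose and 19 fell, a call for 25 of 86 against 26.8% of all 14702 genes tested (10.7% higher and 16% lower). Their median log2 fold change was -0.19, against -0.05 over all genes. Of the 25 calls, 14 were made in each of the 5 fits with 1 array left out. The remaining listed genes were not analysed here. The counts below are of that 1 probe set per gene. Of the 61 genes whose chosen probe set was not called, 12 had another probe set that passed, 5 higher and 7 lower, against 8.14% of the 10769 such genes in all. Besides those described below, these were Inpp5e, Lamtor5, Depdc5, Slc38a9 and Foxo1, with a lower probe set, and Rhebl1, Eif4ebp1, Eif4ebp2 and Gsk3b, with a higher one. All 12 were named after their values were seen. The 8.14% also counts genes with only 1 tested probe set, which could have no other. The shares are thus not those of genes with like numbers of probe sets.

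In the lists of the PI3K enzymes, 2 other class I subunits passed. Pik3cb, the p110 beta subunit, fell to 21.1 ± 3.18 in tumours (SD, n = 3) against 47.3 ± 5.65 in cerebellum (SD, n = 2). This was a change of -0.77 on the log2 scale (adjusted p = 0.00407) whose call ended without cerebellum 2 (-0.68). Pik3r5, the p101 partner of p110 gamma known mainly from blood cells, rose by 0.51 (adjusted p = 0.0283), and of the fits with 1 array left out only that without medulloblastoma 3 kept the call. The summed intensity of 5 microglia markers was 490 to 505 in tumours and 251 to 318 in cerebellum, with Aif1 and C1qa higher. Its part in the rise of Pik3r5 was not tested. None of the 3 measured class II and III genes passed, and Pik3r4 came nearest at -0.35 (adjusted p = 0.0959). Enzymes that oppose PI3K signalling fell in 3 of 8 cases and rose in none in the chosen probe set. Inpp4b, a lipid phosphatase that removes a product of the pathway, had 10.3 ± 2.07 in tumours and 82.2 ± 4.29 in cerebellum, a change of -1.90 (adjusted p = 1.26e-05). Its relative Inpp4a changed by -1.09 and the AKT phosphatase Phlpp1 by -1.23. Both were called with any 1 array left out, while the second probe set of Inpp4a did not pass (-0.41, adjusted p = 0.0772).

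Pdpk1, the kinase that phosphorylates AKT, passed in 1 of its 3 tested readings. Its probe set 1415729_at stands on both chips. On 430A it had 145, 163 and 187 in tumours and 378 and 281 in cerebellum, a change of -0.93 ± 0.21 (adjusted p = 0.00640) whose call ended without cerebellum 1 (-0.72). On 430B the same probe set had 463, 358 and 334 in tumours and 531 and 460 in cerebellum, with overlapping groups and -0.36 ± 0.27 (adjusted p = 0.443). Another Pdpk1 probe set of 430A, 1416501_at, also had overlapping groups and gave -0.36 ± 0.19 (adjusted p = 0.184 in limma). Whether these readings differed was not tested. Rheb, the direct activator of mTOR, fell to 370 ± 67.4 in tumours (SD, n = 3) against 1054 ± 81.7 in cerebellum (SD, n = 2). All 3 tumours lay far below both cerebellum samples, and the log2 fold change of -1.48 ± 0.20 (adjusted p = 1.79e-04) was called with any 1 array left out. Tbc1d7, the third subunit of the TSC complex, fell by 0.51 in 1 of 2 probe sets, and of the fits with 1 array left out only that without medulloblastoma 3 kept the call. The other probe set gave 0.32 (adjusted p = 0.325). Of 7 further mTOR complex subunits measured, none passed in its chosen probe set. Rictor, the defining subunit of mTOR complex 2, gave -0.19 there (adjusted p = 0.409), but of its 4 probe sets on 430B 1435698_at passed, with 104, 76.1 and 57.2 in tumours and 148 and 137 in cerebellum. That was a change of -0.77 (adjusted p = 0.0453) whose call ended without medulloblastoma 2 (-0.76), cerebellum 1 (-0.72) or cerebellum 2 (-0.82). Akt1s1, an inhibitor within mTOR complex 1, came nearest at 0.58 (adjusted p = 0.0532).

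Among the genes that signal amino acid supply to mTOR, 4 of 18 fell and none rose in the chosen probe set. The sestrins Sesn3 and Sesn1, which can restrain mTOR, changed by -1.05 and -0.99, and Rraga, a GTPase that brings mTOR to the lysosome, by -0.76. Sesn1 and Sesn3 were called with any 1 array left out, and the call for Rraga ended without cerebellum 2 and also without cerebellum 1 (-0.68). The 430B probe sets of Sesn1 (-0.06) and Sesn3 (-0.31) did not pass. Rragd, a partner GTPase of Rraga, was not called in its chosen, dim probe set (-0.06), but both of its 430B probe sets were lower. In 1434909_at it had 175, 116 and 77.3 in tumours and 283 and 278 in cerebellum, a change of -1.16 (adjusted p = 0.0214) whose call ended without medulloblastoma 2 (-1.15), cerebellum 1 (-1.15) or cerebellum 2 (-1.17). The other, 1440555_at, gave -0.58 (adjusted p = 0.0234), and of the fits with 1 array left out only that without medulloblastoma 3 kept the call (-0.66). In the energy arm 2 of 11 fell and 1 rose, all of them subunits of AMPK, the kinase that restrains mTOR when energy is low. The catalytic Prkaa2 changed by -1.08 and the gamma subunit Prkag2 by -0.81, both called with any 1 array left out. Prkab1, a beta subunit, had 119, 81.3 and 112 in tumours and 51.8 and 66.9 in cerebellum, a change of 0.67 (adjusted p = 0.0276) whose call was kept, of the fits with 1 array left out, only by that without medulloblastoma 2.

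Receptors and adaptors that feed PI3K held the largest rises, with 3 of 11 higher and 2 lower in the chosen probe set. Pdgfra, a receptor for platelet-derived growth factor that also marks oligodendrocyte precursors, had 456, 305 and 560 in tumours and 64.9 and 52.2 in cerebellum. It rose by 2.58 ± 0.26 on the log2 scale (adjusted p = 2.07e-05), and the other 2 probe sets of the gene passed too, at 1.82 and 2.15. The 4 measured oligodendrocyte markers fell, but no list of oligodendrocyte precursor markers was read. The part of such precursors in the rise of Pdgfra was not tested. Irs1, the adaptor between the insulin and insulin-like growth factor receptors and PI3K, had 625, 780 and 564 in tumours and 136 and 141 in cerebellum, a rise of 2.11 ± 0.21 (adjusted p = 1.80e-05). Tumour and cerebellum values lay far apart in both genes, and both were called with any 1 array left out. Grb2, an adaptor between receptors and RAS, fell by 0.88, and its call ended without medulloblastoma 1 and also without cerebellum 2 (-0.59). Egfr, the epidermal growth factor receptor, was not called in its chosen probe set 1460420_a_at (-0.13, adjusted p = 0.634), but 2 of its 6 tested probe sets were higher. In 1435888_at on 430B it had 185, 128 and 156 in tumours and 42.2 and 28.2 in cerebellum, a change of 1.75 (adjusted p = 2.94e-04). In 1424932_at on 430A it had 44.6, 50.1 and 43.9 in tumours and 12.4 and 11.8 in cerebellum, a change of 1.14 (adjusted p = 9.59e-05). Both were called with any 1 array left out, and the other 4 gave -0.17 to 0.11. Among 18 targets and effectors, 1 rose and 4 fell. Sgk1, a kinase related to AKT and activated through mTOR complex 2, had 64.04, 53.4 and 75.4 in tumours against 382 and 462 in cerebellum, a change of -2.45 ± 0.21 (adjusted p = 6.43e-06). Rps6, the ribosomal protein phosphorylated downstream of mTOR, rose by 1.28 (adjusted p = 7.92e-04), and Lpin1, a regulator of lipid synthesis, changed by -1.22 (adjusted p = 0.00112). These 3 were called with any 1 array left out.

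**Figure D5:**
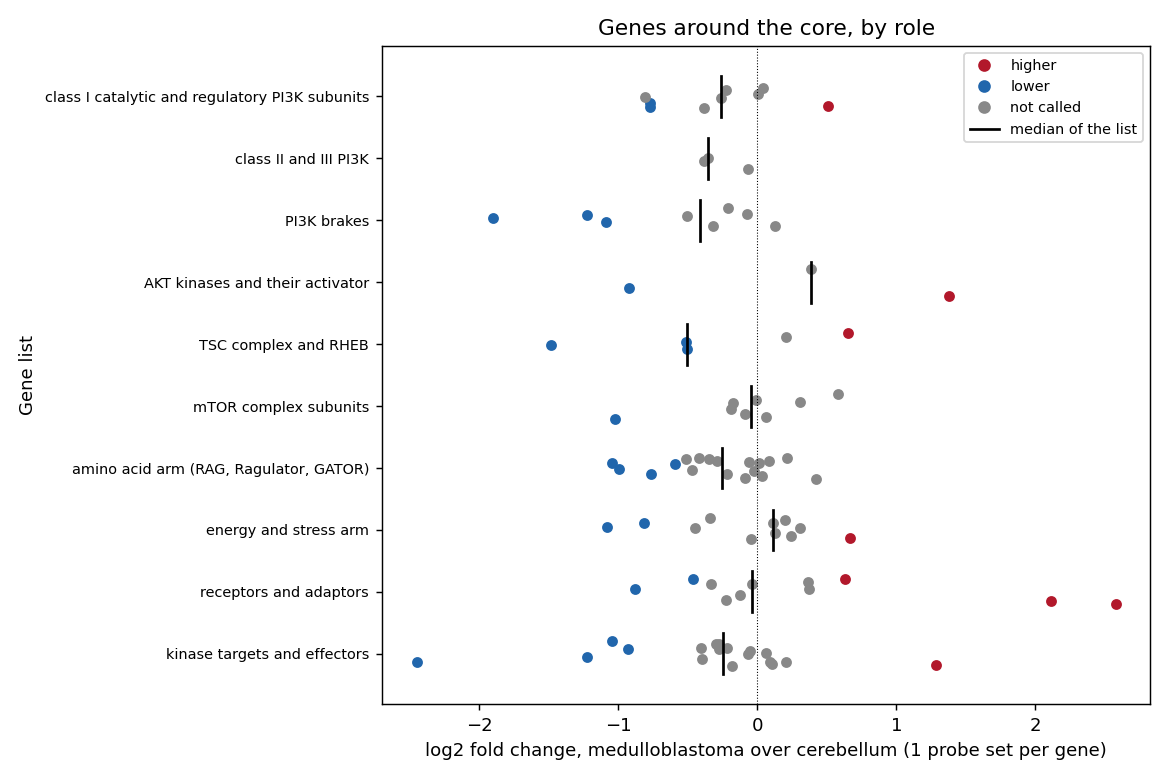
Log2 fold change of medulloblastoma over cerebellum for the 94 tested genes of the 10 pathway lists, the 8 members included, with 1 probe set per gene, coloured by call and with a black line at the median of each list. Pdgfra (2.58), Irs1 (2.11) and Akt1 (1.38) lie farthest to the right, and Sgk1 (-2.45) and Inpp4b (-1.90) farthest to the left.

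The listed gene with the pattern nearest to each core probe set was found by the root mean square difference of centred log2 values over the 5 arrays of a chip. For the brightest Pik3ca probe set of 430A the nearest of 124 probe sets was Pik3r1 1451737_at, at 0.041 log2 units. For Akt1 1416657_at it was Egfr 1424932_at, a growth factor receptor probe set, at 0.28 and thus a loose match. Mtor 1417592_at lay nearest to 1425458_a_at of Grb10, an mTOR substrate that restrains insulin signalling, at 0.089. The other Grb10 probe sets were not called (-0.10 and -0.29). Mtor 1436267_a_at, called in the opposite direction, lay nearest to Gab1 1417693_a_at at 0.074. Tsc2 lay nearest to Prkab1 at 0.087. Pik3r3 on 430B lay nearest to Gab2 1419829_a_at, an adaptor probe set, at 0.13.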

How the data were processed

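Trizol RNA was made into biotin-labelled cRNA with the Affymetrix method, per the labels' protocols. The authors deposited 1 linear intensity per probe set and array. Its software, scaling and background treatment are not known here, and 298 to 477 values per array equal exactly 1. Groups and replicate numbers came from the titles. Values were transformed to log2(value + 16) after the authors deposited them, the dimmest 25% of a chip's probe sets were left out, and each chip was fitted alone with limma 3.58.1 in R 4.3.3 (lmFit, eBayes with an intensity trend, two-sided), with Benjamini-Hochberg adjustment over all tested probe sets. The number of arrays limits the precision.

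Symbols came from the platform annotation. In the lists each gene had 1 tested probe set: one of 430A if present, without an _s_at or _x_at ending if possible, and otherwise the brightest. The text names all core probe sets and, per list, up to 3 called genes by absolute log2 fold change, or else the gene with the smallest p. The members, lists and tests were chosen with earlier results of these data known. The fits were tested on simulated data. Alternatives changed pseudocount, normalization, filter, trend, threshold, replicate block and arrays. Averaging the probe sets of a gene was added after the data were seen. Figures were drawn with matplotlib 3.10.9.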

Additional observations from a re-analysis of the deposited data

How the results depend on the processing

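With 3 tumours and 2 cerebellum samples, calls rested on few arrays while directions held: no called core probe set changed sign in any alternative fit. Uncalled ones did, namely Pik3ca 1429435_x_at (-0.20) and Akt1 1440950_at (-0.14) when 430B was scaled by probe sets common to both chips, and Pik3ca 1423144_at, which ran from -0.25 to 0.063 with 1 array left out (0.063 without medulloblastoma 1). That scaling follows replicate numbers, which did not match between the chips. It moved the median log2 fold change of all 430B probe sets to -0.41, against -0.02 as deposited, so its values hold that shift, and higher calls made up 18.8% of calls (480 higher, 2079 lower), against 44.6% (1326 and 1649). Of the core on 430A, 5 higher and 5 lower as reported, 3 were higher with the lowest 50% left out, 3 were lower with quantile normalization, equal array medians or no filter, and 2 were higher and 1 lower at an adjusted p below 0.01. With 1 array left out, 2 to 6 were higher and 1 to 5 lower. Of the core on 430B, none was lower with a pseudocount of 1, equal array medians, no filter or the 0.01 threshold, and 2 with the shared scaling. With 1 array left out, 0 to 2 were lower and none higher in limma. Over all probe sets of 430A, the 0.01 threshold left 1432 higher, and the fits with 1 array left out gave 1284 to 2800 higher and 1967 to 3743 lower. On 430B that threshold left 699 higher and 1069 lower, and with 1 array left out there were 513 to 2601 higher and 917 to 2262 lower. Of the listed genes, 8 higher and 22 lower as reported, 4 and 14 passed the 0.01 threshold. With 1 array of the same group and number left out on each chip, 4 to 9 were higher and 14 to 26 lower. For tumours, the arrays so left out did not match between the chips. The replicate number as a block gave 2 lower core probe sets on 430B and 2822 higher probe sets there. Under it Akt2 1421324_a_at (0.54, adjusted p = 0.0155) and Pik3r3 (-0.52, adjusted p = 0.0104) passed and Pik3r1 1451737_at (-0.45, adjusted p = 0.0721) did not. Number 3 had no cerebellum sample, so the block left medulloblastoma 3 out of the tumour estimate. These 3 log2 fold changes were thus those of the fits without medulloblastoma 3. The numbers were not taken to pair samples, since tumour and cerebellum deviations of the same number correlated at -0.03 and 0.17 on 430A and 0.11 and 0.02 on 430B.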
